A study of Arabidopsis thaliana with 14 samples.

Results

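Of the 1462 3′ UTR extensions counted in Arabidopsis roots, 74 had a lower read share than the control in every mutant of the THO core complex. These 74 extensions are described here. An extension is a stretch of intergenic sequence directly downstream of an annotated gene in which reads continue past the annotated end. The share, or extension ratio, is the reads on the extension divided by the reads on the gene body, and is given as a percentage of the gene count. The 74 were selected on these measured ratios. An extension needed at least 20 reads over all 14 samples, which 1447 of the 1462 had. Its ratio from summed counts had to be at most 0.67 times the control ratio in pho1-7tex1-4 and in pho1-7hpr1-5, and at most 0.8 times in tex1-4. The lower ratios of these mutants were thus the criterion of selection and are given as a description without a test.

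Most messenger RNAs end where a cleavage and polyadenylation machinery cuts the nascent transcript downstream of a signal hexamer and adds a poly(A) tail. Transcripts that are cut later, or not cut at the usual place, carry sequence from beyond the annotated end. TEX1 (THO3) and HPR1 (THO1) are subunits of the THO core of the TREX complex, which joins nascent messenger RNA during transcription and is known for linking transcription to splicing and nuclear export.

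RNA was measured in roots of 2 experiments, and every plant was in the Columbia background. Plants of the first grew for 3 weeks in pots, with 2 single-end libraries each of the double mutants pho1-7hpr1-5 and pho1-7tex1-4, of their parent pho1-7 and of Col-0. The line pho1-7 carries a T-DNA in the phosphate exporter gene PHO1, and both double mutants carry that same insertion, so neither THO mutation was measured in pots without it. The hpr1 allele is spelled here as in the sample labels, whereas the study's text writes hpr1-6. The second experiment held roots from Petri dishes, called plates here, with 3 paired-end libraries each of Col-0 and tex1-4, the only THO mutant without pho1-7. The labels give these plants 10 days, while the study's methods give a shorter growth on plates. In pots, Col-0 and pho1-7 together formed the control of 4 samples, and on plates the control was Col-0. A double mutant ratio below this pooled control can therefore be close to that of the parent pho1-7, as given below for AT3G11600.

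Gene counts summed to between 56068761 and 110039106 reads per library, but the median of the 74 extensions had only 16 to 68.5 reads per library. TEX1 (AT5G56130) stood at 0.708 to 1.03 CPM (counts scaled to library size) in pho1-7tex1-4 against 12.4 to 13.7 in the other pot samples, and at 2.17 to 2.58 in tex1-4 against 14.6 to 14.8 in Col-0 on plates. HPR1 (AT5G09860) was at 11.8 to 12.3 CPM in pho1-7hpr1-5 and at 33.8 to 36.2 in the other pot samples. PHO1 (AT3G23430) was at 974.6 to 1028 CPM in Col-0 from pots, and lower in the lines with the insertion, at 188 to 200 in pho1-7, 275 to 312 in pho1-7hpr1-5 and 379 to 426 in pho1-7tex1-4. Replicate 2 of Col-0 on plates stood apart from the other 2, as its gene counts gave chi-square per degree of freedom values of 136 and 109 against 13.1 between the remaining pair. Without it the selection gave 71 extensions, 68 of them among the 74. All 7 root markers were detected in every group, with summed levels of 460 to 873 CPM. The 8 shoot markers were all detected too, and their summed level was 106 to 120 CPM in tex1-4 against 167 to 195 in Col-0 on plates. In pho1-7tex1-4 that sum was 21.2 in one sample and 166 in the other, and in the pot controls 117 to 203. The part of the shoot markers in the ratios was not tested.

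The sequences at the annotated 3′ ends of 8 of these genes are shown because the extensions were counted downstream of such gene ends. They come from RefSeq on TAIR10.1, and the ends of the gene models used in the counting may lie elsewhere. They are written 5′ to 3′ on the gene's own strand. For APX1, SIR and NFXL2 the 30 bases surround the last AATAAA hexamer within 50 bases of the annotated end, in capitals. The other 5 have no such hexamer there, and their windows are the last 30 bases up to the annotated end.
APX1 (AT1G07890, chr1:2439627-2439656, plus strand): cacattAATAAAattaatttctctcgatat
SIR (AT5G04590, chr5:1323331-1323360, plus strand): ttaatgAATAAAaatcccttatgagaaaaa
NFXL2 (AT5G05660, chr5:1690571-1690600, minus strand): gtttcacaaaAATAAAacaatgattttttg
GAPC2 (AT1G13440, chr1:4608077-4608106, minus strand): tcttcgattgaaagcaaaagttactgagac
BIP1 (AT5G28540, chr5:10540123-10540152, minus strand): tgtgtataggtctaaatacaaattgtctaa
AT1G65510 (chr1:24360052-24360081, plus strand): caaatttcagaaaacaaacttcttactact
AT2G09990 (chr2:3782306-3782335, plus strand): cctctcctggtacgattttttttgtttgtg
AT5G60940 (chr5:24526084-24526113, plus strand): gagtttcaactctattcaaatttataaacg

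The hexamer AATAAA, searched on the gene's strand in the last 50 bases, was found in 11 of the 74 genes (14.9%). It was found in 8.08% of the 1362 other genes with an extension and in 9.77% of all 27444 nuclear protein-coding genes. AATGAA was found in 5.41% of the 74, in 3.60% of the others and in 4.93% of the protein-coding genes, and ATTAAA in 4.05%, 4.33% and 4.72%. A match says only that these letters are present in the window. The files give no coordinates for the extensions, so where an extension itself ends was not analysed here.

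**Figure D1:**
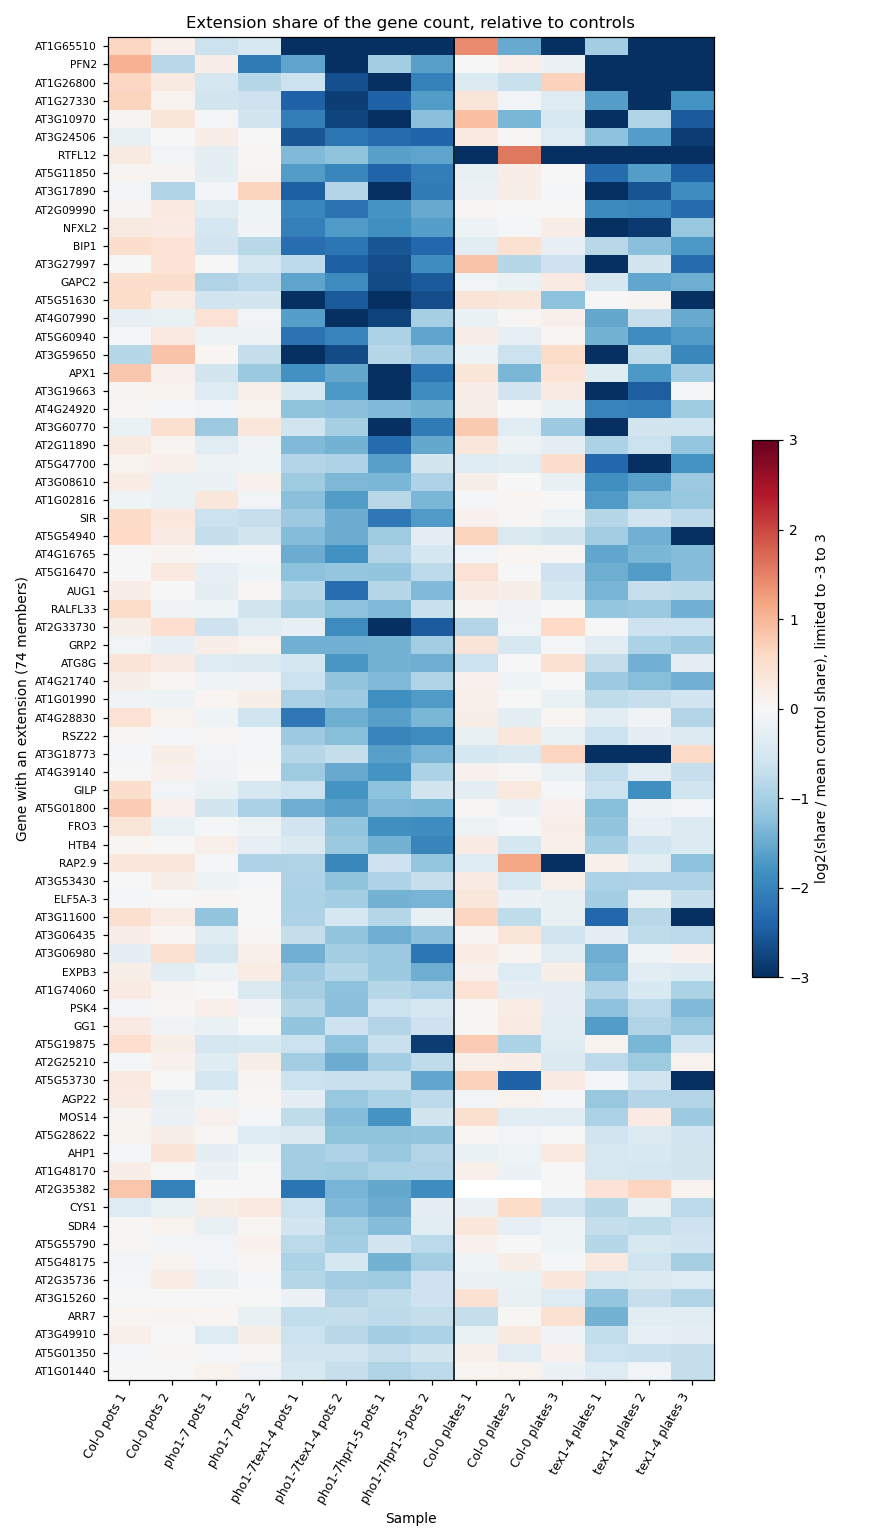
Each row is 1 of the 74 genes and each column 1 of the 14 libraries. Color gives the log2 of the extension share over the mean control share of the same experiment, limited to -3 to 3, with blank cells where no gene reads were counted. The mutant columns are mostly blue because the rows were selected for this, and the rows near the top include AT1G65510, PFN2 and AT1G26800.

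The median share of the 74 extensions was 2.49% of the gene count in Col-0 and 2.29% in pho1-7 from pots, against 11.4% and 11.2% for the 1373 other extensions with enough reads. It was 1.05% in pho1-7tex1-4 and 0.863% in pho1-7hpr1-5, where the other extensions had medians of 11.47% and 10.7%. On plates the median share of the 74 was 0.831% in Col-0 and 0.353% in tex1-4, and that of the others was 7.08% and 8.92%. Their genes were read deeply, with a median of 41400 gene reads over all samples against 13590 for the others. The extension itself had between 31 and 9826 reads over all samples, with a median of 496.

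In most of the 74 the extension count was lower while the gene count was near that of the control. Extension reads scaled to library size were lower than in the control for 73 of the 74 in pho1-7tex1-4, for 71 in pho1-7hpr1-5 and for 71 in tex1-4. Their median log2 change was -1.08, -1.24 and -0.78, while the median log2 change of the 74 gene counts was 0.01, 0.03 and 0.06. The gene count was at least 2-fold higher for only 1, 3 and 1 of the 74 genes. The numerator and the denominator are both part of the selected ratio, so these values describe what was selected.

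**Figure D2:**
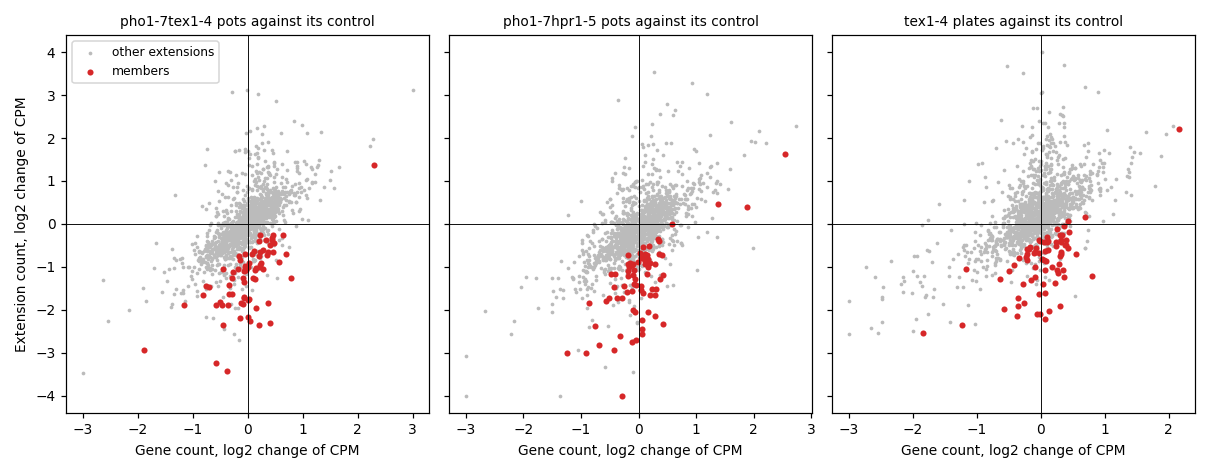
The log2 change of extension reads (vertical axis) is plotted against the log2 change of gene reads (horizontal axis), both in CPM, for each mutant against its control. Red points are the 74 members and grey points the 1373 other extensions, with values limited to -4 to 4 and -3 to 3. The red points lie mostly below the horizontal line at 0 and are spread around the vertical one.

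Every mutant sample lay below every control sample for 66 of the 74 in pho1-7tex1-4, where 18.1% of all 1447 extensions did so. The count was 68 in pho1-7hpr1-5 (31.3% of all) and 45 in tex1-4 on plates (6.84% of all), and 40 of the 74 had no overlap in all 3 groups (4.15% of all). These counts follow from the selection and nothing is read from them.

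**Figure D3:**
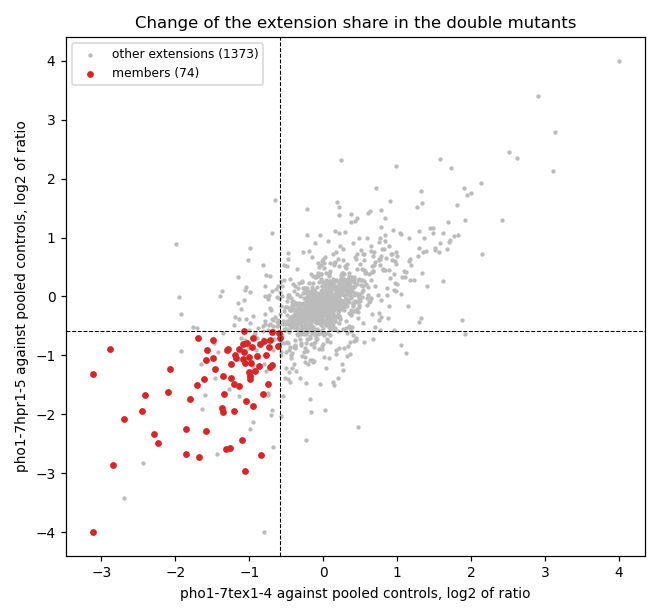
Each point is 1 of 1447 extensions, placed by the log2 of its ratio over the pooled control ratio in pho1-7tex1-4 (horizontal) and pho1-7hpr1-5 (vertical), limited to -4 to 4. Dashed lines mark the selection limit of 0.67, and the 74 members in red fill part of the lower left corner, because the plates had to be lower as well.

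Over the 74, the mutant ratio was 0.115 to 0.67 of the control in pho1-7tex1-4, 0.0543 to 0.67 in pho1-7hpr1-5 and 0 to 0.779 in tex1-4. Some members sat at the limit. The nearest inside were AT3G15260, a protein phosphatase 2C gene, with 0.67, 0.617 and 0.544 of the control ratio in pho1-7tex1-4, pho1-7hpr1-5 and tex1-4, then PSK4 (0.477, 0.67 and 0.453) and AT5G01350 (0.663, 0.652 and 0.628). The nearest outside were RABA1b (0.673, 0.520 and 0.761), AT4G11845 (0.501, 0.674 and 0.765) and AT1G78810 (0.624, 0.677 and 0.474). The ratio nearest to the limit was thus almost the same on either side, while the other ratios of these genes differed.

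By the largest of its 3 mutant ratios the lowest member was AT1G65510, an uncharacterized protein gene, with 0.116, 0.0543 and 0.197. In pots its extension share was 24.6% and 17.7% of the gene count in Col-0, 10.2% and 11.5% in pho1-7, 1.96% and 1.74% in pho1-7tex1-4, with 0.719% and 1.03% in pho1-7hpr1-5. The 4 genotypes did not overlap and lay in this order, of which the low double mutants follow from the selection. On plates the extension had only 5 reads in Col-0 and 1 in tex1-4, so its plate ratio of 0.197 rests on very few reads.

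Genes for translation made up a first group. A RefSeq product naming a ribosomal protein stood beside 7 of the 74 extensions (9.46%) and beside 8 of the 1362 others (0.587%). This group was formed after the values had been seen and was not tested. Of the 8 not selected, 5 also had ratios below 1 in all 3 mutants, 1 of them at only 0.917, 0.93 and 0.92. The share of all extensions below 1 in all 3 mutants was not counted, so nothing is read from this. The 7 include AT2G09990, AT3G53430, AT3G60770 and AT1G74060, with AT2G25210, AT5G47700 and the mitochondrial AT3G59650.

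AT2G09990 has a product named for the ribosomal protein S5 fold. Its extension share was 2.81% and 3.28% in Col-0, 2.16% and 2.44% in pho1-7, 0.693% and 0.580% in pho1-7tex1-4, with 0.786% and 0.939% in pho1-7hpr1-5. On plates it was 1.19%, 1.17% and 1.15% in Col-0 and 0.312%, 0.303% and 0.238% in tex1-4. The mutants were clear of the controls in both experiments, and the 3 plate controls were almost alike. AT3G53430, whose product is of the L11 ribosomal protein family, had more extension reads, 2247 over all samples, and smaller changes, to 0.471, 0.572 and 0.509 of the control ratio.

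AT1G74060 (ribosomal protein L6 family) was at 0.456, 0.538 and 0.595 of the control ratio. AT2G25210 (L39 family) was at 0.405, 0.532 and 0.711, and AT5G47700, an acidic protein of the large subunit, at 0.537, 0.497 and 0.184. AT3G59650 had 79 extension reads in all and 0.136, 0.539 and 0.320. Other genes of translation among the 74, named after their values were seen, were AT3G49910, AT5G54940, which encodes a SUI1-type initiation factor, and ELF5A-3, which encodes an eIF5A protein. Their ratios were 0.588, 0.5 and 0.773, then 0.354, 0.598 and 0.329, then 0.505, 0.380 and 0.674.

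RSZ22 (AT4G31580), a serine/arginine-rich splicing factor, had the third largest number of extension reads, 5092. Its share was 14.97% and 14.35% in Col-0, 14.9% and 14.2% in pho1-7, 6.88% and 5.98% in pho1-7tex1-4, with 3.69% and 3.93% in pho1-7hpr1-5. On plates it was 6.76%, 9.89% and 6.83% in Col-0 and 5.00%, 6.54% and 5.88% in tex1-4, so that the change there was smaller and the highest tex1-4 value was only just under the lowest control. NFXL2 (AT5G05660), an NF-X1-type zinc finger protein, was at 0.288, 0.3 and 0.218 of the control ratio. The importin-like MOS14, the cold shock domain protein gene GRP2 and the RNA helicase AT3G06980, named after their values were seen, had ratios from 0.349 to 0.779.

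AT5G60940 encodes CSTF50, a subunit of the cleavage stimulation factor that acts in 3′ end formation itself. Its extension share was 3.88% and 4.95% in Col-0, 3.64% and 3.62% in pho1-7, 0.869% and 1.01% in pho1-7tex1-4, with 2.08% and 1.35% in pho1-7hpr1-5. On plates it was 2.51%, 1.83% and 2.23% in Col-0 and 0.825%, 0.597% and 0.691% in tex1-4. Mutants and controls did not overlap, and pho1-7tex1-4 lay below pho1-7hpr1-5, a difference of 0.84 in log2 (standard error 0.384) that missed the threshold (adjusted p = 0.184, edgeR). The CSTF50 gene count changed by -0.15, -0.51 and -0.27 in log2 in pho1-7tex1-4, pho1-7hpr1-5 and tex1-4 (adjusted p = 0.1565, 0.00185 and 0.0524, edgeR). It was thus lower in pho1-7hpr1-5 and tex1-4 at an adjusted p under 0.1, but none of these changes was over 2-fold.

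CSTF50 was the only one of 25 listed genes of cleavage, polyadenylation and termination that was also among the 74. Calls required a change over 2-fold with an adjusted p under 0.1. In gene counts, 0 of the 25 were called in any mutant by edgeR's quasi-likelihood test, because none changed over 2-fold. DESeq2 was not run on these comparisons. At an unadjusted p under 0.05 there were 15 for tex1-4, 14 for pho1-7hpr1-5 and 20 for pho1-7tex1-4. With the 2-fold limit set aside, 14 genes for tex1-4 had an adjusted p under 0.1 (edgeR). By the same measure pho1-7hpr1-5 had 14 and pho1-7tex1-4 had 20, so small changes were detected in many of them. No share of all genes at that threshold was set beside these 25. Their log2 changes lay between -0.46 and 0.68, between -0.51 and 0.68 and between -0.66 and 0.61, in pho1-7tex1-4, pho1-7hpr1-5 and tex1-4, with medians of 0.24, 0.09 and 0.04 beside medians near 0.01 for all genes.

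In protein entry into the endoplasmic reticulum, BIP1 (AT5G28540), a chaperone of the reticulum, had a share of 0.474% and 0.433% in Col-0, 0.219% and 0.183% in pho1-7, 0.0675% and 0.0730% in pho1-7tex1-4, with 0.0556% and 0.0639% in pho1-7hpr1-5. On plates it was 0.0533%, 0.0918% and 0.0571% in Col-0 and 0.0376%, 0.0285% and 0.0203% in tex1-4. The plate controls were thus at the level of the pot double mutants. AT1G27330, whose product is the ribosome-associated membrane protein RAMP4, was at 0.154, 0.236 and 0.201 of the control ratio, and AT4G24920, a Sec61 gamma subunit named after its values were seen, at 0.423, 0.384 and 0.325. BIP1, GAPC2 and the histone gene HTB4 have near-identical paralogs, and reads that fit more than one copy may be missing from their gene counts.

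Among enzymes, SIR (AT5G04590), the sulfite reductase of sulfate assimilation, had a share of 0.787% and 0.660% in Col-0, 0.340% and 0.327% in pho1-7, 0.246% and 0.190% in pho1-7tex1-4, with 0.120% and 0.162% in pho1-7hpr1-5. On plates it was 0.114%, 0.108% and 0.0941% in Col-0 and 0.0578%, 0.0695% and 0.0613% in tex1-4. The order of the groups was complete in both experiments. APX1 (AT1G07890), a cytosolic ascorbate peroxidase that removes hydrogen peroxide, was at 0.403% and 0.2498% in Col-0, 0.155% and 0.106% in pho1-7, 0.0653% and 0.0785% in pho1-7tex1-4, with 0.0235% and 0.0511% in pho1-7hpr1-5. GAPC2 (AT1G13440), the glycolytic glyceraldehyde-3-phosphate dehydrogenase, was at 0.109% and 0.110%, then 0.0408% and 0.0437%, then 0.0253% and 0.0204%, then 0.0118% and 0.0132% in the same order of genotypes. For both enzymes the 4 pot genotypes fell in the same sequence without overlap. In SIR, APX1 and GAPC2 the low double mutants follow from the selection. These genes were named partly for a call between pho1-7 and Col-0, so nothing is read from the order. Of all 1458 extensions tested, 68.0% were lower in pho1-7hpr1-5 than in pho1-7tex1-4. On plates APX1 was at 0.0143%, 0.00429% and 0.0149% in Col-0 and 0.00863%, 0.00340% and 0.00550% in tex1-4, and there the groups overlapped. GAPC2 was at 0.0106%, 0.00988% and 0.0133% in Col-0 on plates and 0.00790%, 0.00385% and 0.00410% in tex1-4, without overlap.

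PSK4 (AT3G49780), a precursor of the phytosulfokine growth peptide, was at 15.2% and 16.5% in Col-0, 18.14% and 14.98% in pho1-7, 8.92% and 6.83% in pho1-7tex1-4, with 10.4% and 11.3% in pho1-7hpr1-5. On plates it was 3.78%, 4.27% and 3.01% in Col-0 and 1.58%, 2.11% and 1.48% in tex1-4. Both double mutants lay below both controls, and the samples of pho1-7 and Col-0 overlapped. The cytokinin response regulator gene ARR7 was at 0.608, 0.596 and 0.632 of the control ratio, and AHP1, RALFL33 and RAP2.9, named after their values were seen, had ratios from 0.336 to 0.705.

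The largest number of reads, 9826, lay on the extension of AT5G55790, an uncharacterized protein gene. There the extension held more reads than the gene body in each pot control, at 152% and 141% in Col-0 and 140% and 164% in pho1-7, and fewer in pho1-7tex1-4, at 85.5% and 73.1%. In pho1-7hpr1-5 the 2 samples stood at 101% and 85.2%. AT5G01350, AT1G01440 and SDR4 also had many reads, with ratios between 0.552 and 0.761 of the control.

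The remaining members of the 8 with the lowest ratios were AT3G10970 (0.183, 0.259 and 0.238), a haloacid dehalogenase-like hydrolase gene, AT5G11850 (0.276, 0.210 and 0.230), a protein kinase gene, AT3G24506 (0.204, 0.197 and 0.301) and the transcribed pseudogene AT3G27997 (0.333, 0.205 and 0.319). AT3G24506 and AT5G11850 had 410 and 593 extension reads in all, and AT3G10970 and AT3G27997 had 90 and 173.

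**Figure D4:**
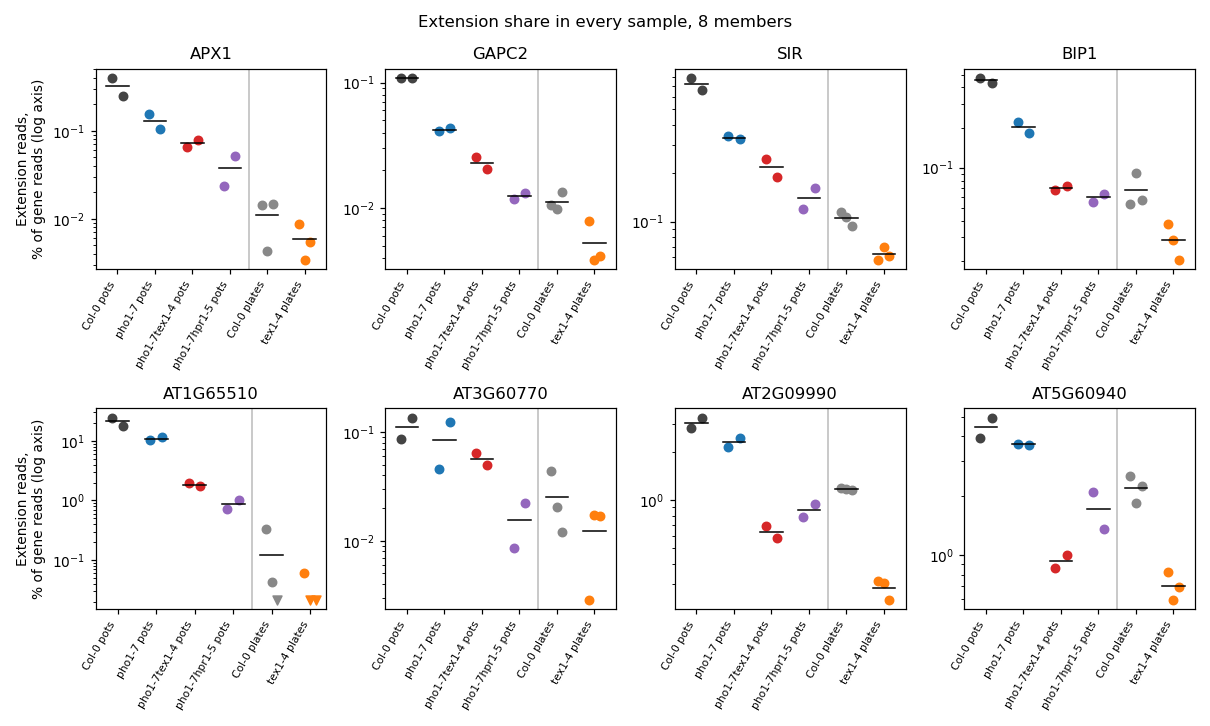
Each panel shows the extension share as a percentage of the gene count on a log axis for 1 gene, with a point for each library and a bar at the group mean. Triangles at the foot stand for 0 extension reads, and the grey line divides pots from plates. The pot groups descend in steps in APX1, GAPC2 and SIR, while in AT3G60770 the pho1-7hpr1-5 samples lie below the other pot groups. The low double mutants follow from the selection.

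A part of the set was thinly read on plates. Under 10 extension reads were counted in the 3 Col-0 plate samples together for 5 members, AT1G65510, the snoRNA gene AT2G35382, AT3G18773, RTFL12 and the profilin gene PFN2. In tex1-4, 3 members had 0 extension reads. For AT1G26800 this was 0 beside 960 gene reads, which allows a share of up to 0.313%, and the Col-0 plate share was 0.328%. The Col-0 libraries had 2, 3 and 5 extension reads and shares of 0.260%, 0.216% and 0.561%. The limit lies within their spread, so no difference was detectable there. For RTFL12 0 beside 163 allows up to 1.84%, which is above its Col-0 share of 0.943%, so that no difference was detectable at this depth. For PFN2 0 beside 112733 allows up to 0.00266%, counting error only, and its Col-0 share was 0.00545%, from 2, 3 and 2 reads.

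The pot and plate levels differed as well. The Col-0 share was lower on plates than in pots for 72 of the 74 extensions, with a median log2 difference of -1.23, and for 1212 of the 1373 others, with a median of -0.66. The difference was -3 or lower in log2 for 6 of the 74, among them AT1G65510 (-7.76), AT1G26800 (-5.13) and APX1 (-4.91). Growth medium, age and library layout all differ between the 2 experiments and cannot be told apart.

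Because Col-0 and pho1-7 were pooled as the control, the selection did not use the difference between them directly, and it was tested. It shares its samples with the selection all the same, and the selection favoured a lower ratio in pho1-7. Both double mutants carry pho1-7, so an extension already low in pho1-7 was more easily below the pooled control. AT3G11600, named after its values were seen, had summed shares of 2.11% in Col-0, 1.15% in pho1-7, 1.05% in pho1-7tex1-4 and 1.11% in pho1-7hpr1-5. The counts for the 74 are thus a description and not independent of the selection. The ratio was lower in pho1-7 than in Col-0 for 59 of the 74 and for 52.7% of all 1458 extensions tested, and the median log2 difference was -0.22 for the 74 and -0.01 for all. By edgeR's quasi-likelihood ratio test, 8 of the 74 were called lower, where 0.823% of all 1458 extensions were (12 extensions). Called higher were 0 of the 74, with 0 at an unadjusted p under 0.05 and 0 by DESeq2, where 0.137% of all were.

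GAPC2 fell furthest among them, by 1.37 in log2 (standard error 0.173, adjusted p = 3.42e-05, edgeR). APX1 fell by 1.31 (standard error 0.237, adjusted p = 0.00176, edgeR), BIP1 by 1.18 (standard error 0.185, adjusted p = 0.000372, edgeR) and SIR by 1.12 (standard error 0.164, adjusted p = 0.000203, edgeR). AT5G54940 fell by 1.08, AT1G26800, a RING/U-box protein gene, by 1.15, AT5G01800, a saposin B domain gene, by 1.22 and AT1G27330 by 1.00. In all 8 both pho1-7 samples were below both Col-0 samples. AT1G65510, at -0.96 (adjusted p = 6.71e-05, edgeR), missed the 2-fold limit only. Without replicate 1 of Col-0, 2 were still called, GAPC2 at -1.37 and BIP1 at -1.11, and without replicate 2 of pho1-7 the count was 5, of which 4 were among the 8. The other 6 kept a lower ratio without that Col-0 library, from -0.69 to -0.98 in log2.

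**Figure D5:**
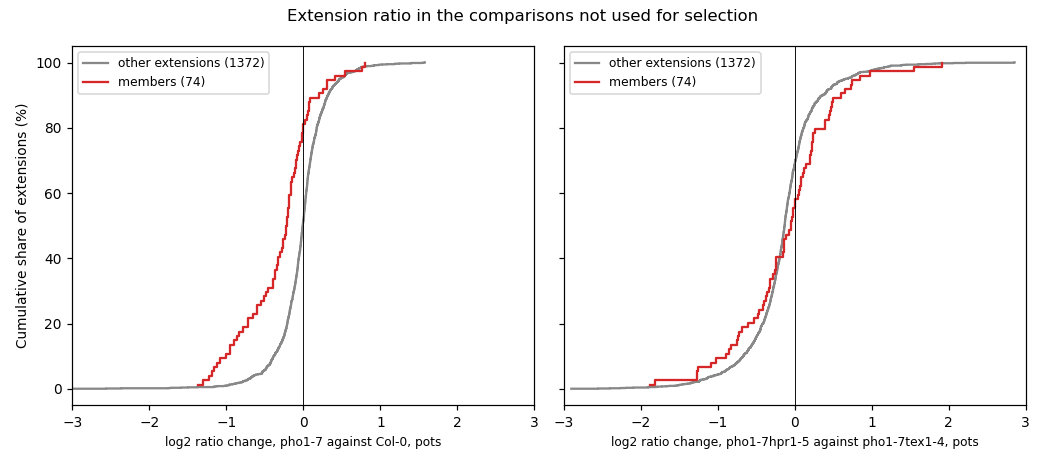
Curves give the cumulative percentage of extensions (vertical axis) up to each fitted log2 difference in ratio (horizontal axis), for the 74 members in red and the other extensions in grey. On the left, pho1-7 against Col-0, the red curve lies to the left of the grey one over most of its length, with medians of -0.22 for the 74 and -0.01 for all. On the right, pho1-7hpr1-5 against pho1-7tex1-4, the medians are -0.05 and -0.13.

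The double mutants were compared directly, again with a test of a difference that the selection did not use, although it set a ceiling on both. Of the 74, 41 had a lower ratio in pho1-7hpr1-5 than in pho1-7tex1-4, beside 68.0% of all 1458 extensions, and the median log2 difference was -0.05 for the 74 and -0.13 for all. By edgeR's ratio test 4 of the 74 were called lower (3.57% of all) and 0 higher (1.65% of all), with 7 higher at an unadjusted p under 0.05. DESeq2 with the same model called 0 in either direction.

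The 4 were AT2G33730, an RNA helicase-type ATPase gene, AT3G60770 (ribosomal protein S13/S15), AT1G65510 and APX1. AT3G60770 had shares of 0.00855% and 0.0223% in pho1-7hpr1-5 against 0.0642% and 0.0493% in the other double mutant, a log2 difference of -1.81 (standard error 0.591, adjusted p = 0.0551, edgeR), from 7 and 38 extension reads. AT2G33730 had 0.0245% and 0.0536% against 0.256% and 0.0825%, a difference of -1.88 (standard error 0.644, adjusted p = 0.0721, edgeR), from 6 and 27 reads. Both pho1-7hpr1-5 samples were below both pho1-7tex1-4 samples for all 4. AT1G65510 differed by -1.08 (standard error 0.370, adjusted p = 0.0721, edgeR) and APX1 by -1.03 (standard error 0.382, adjusted p = 0.0973, edgeR). None of the 4 was called without replicate 1 of pho1-7tex1-4 or without replicate 1 of pho1-7hpr1-5.

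RSZ22 and AT1G01990 differed by less than 2-fold between the double mutants, at -0.74 (adjusted p = 0.00131, edgeR) and -0.72 (adjusted p = 0.0356, edgeR). In the other direction AT4G16765, an oxygenase gene, was 0.98 higher in log2 in pho1-7hpr1-5 (adjusted p = 0.00924, edgeR), with shares of 3.42% and 4.38% against 2.25% and 1.78%, and AT5G54940 was 0.75 higher (adjusted p = 0.0427, edgeR). These members did not all follow the same order of the 2 mutants.

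In gene counts few of the 74 were called. In bulk root RNA, fewer cells of a type and less RNA per cell cannot be told apart. Between pho1-7 and Col-0, 1 of the 74 genes was called higher (0.578% of 21972 genes) and 1 lower (1.29%) by edgeR. AT3G18773, a RING/U-box protein gene, was at 7.66 to 10.7 CPM in Col-0 and 21.8 to 24.0 in pho1-7, a log2 rise of 1.32 (standard error 0.170, adjusted p = 0.00542, edgeR). RTFL12, a small ROTUNDIFOLIA-like protein gene, was at 15.9 to 18.3 CPM in Col-0 and 6.17 to 7.47 in pho1-7, a fall of 1.33 (standard error 0.336, adjusted p = 0.0550, edgeR). RTFL12 was not called without replicate 1 or without replicate 2 of Col-0, nor without replicate 2 of pho1-7.

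Between the double mutants 3 genes were called higher in pho1-7hpr1-5 (2.82% of 21972) and 0 lower (1.27%), with 22 lower at an unadjusted p under 0.05 by edgeR and 0 called lower by DESeq2. AT3G18773 was at 6.15 to 8.29 CPM in pho1-7tex1-4 and 58.5 to 59.7 in pho1-7hpr1-5, a log2 difference of 3.05 (adjusted p = 4.2e-05, edgeR). AT1G26800 was 1.495 higher (adjusted p = 0.00941, edgeR) and ARR7 1.11 higher (adjusted p = 0.0283, edgeR). ARR7 was not called without either replicate of pho1-7tex1-4 or without replicate 2 of pho1-7hpr1-5.

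Against the controls, gene counts of the members were called by edgeR as follows. In pho1-7tex1-4, 1 was higher (1.81% of 21972) and 2 lower (2.88%), in pho1-7hpr1-5 3 were higher (2.64%) and 1 lower (2.79%), and in tex1-4 0 of 73 were higher (2.33% of 21772), with 21 at an unadjusted p under 0.05, and 3 lower (3.09%). AT1G26800 and AT3G18773 were lower in both lines with tex1-4, and AT3G18773 was higher in pho1-7hpr1-5. The pot control pools Col-0 and pho1-7, and AT3G18773 was 1.32 higher in log2 in pho1-7 than in Col-0. Its levels in pho1-7tex1-4 overlapped those of Col-0 and were below those of pho1-7, while pho1-7hpr1-5 was above both. The gene count is the denominator of the selected ratio. AT2G35382, a snoRNA gene of 76 bases, had fewer gene reads than extension reads in every pot sample, so its ratio rests on very low gene counts. Its extension reads were higher than in the control, by 1.37, 1.63 and 2.21 in log2 in pho1-7tex1-4, pho1-7hpr1-5 and tex1-4. Its gene reads were higher too, by 2.30, 2.54 and 2.16, so its lower ratio is not a fall in extension reads.

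All 74 genes were found in the TAIR10.1 annotation, and 71 of them (95.9%) were protein coding. Their median length was 1654 bases against 2266 for the other genes with an extension. The next counted gene downstream lay on the same strand for 38 of the 74 (51.4%) and for 62.6% of the others, with a median gap of 601.5 bases against 482. The gap was under 200 bases, the least length of an extension in the study's methods, for 18 of the 74 (24.3%) and for 31.4% of the others. For 6 of the 74 it was an overlap. In AT4G24920 and GRP2 the overlapping neighbour is on the same strand, so strand does not separate the reads there. In the other overlaps, reads of neighbouring genes cannot be told apart if the counting ignored strand. By the RefSeq ends, some same-strand neighbours also lay closer than 200 bases without overlap, such as 84 bases past AT5G01800 and 190 past AT3G17890. Strand does not separate the reads of such neighbours either. The same-strand neighbour 131 bases past AT5G60940 had 0 reads. No 2 of the 74 were next to each other.

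The downstream neighbours were read for their own gene counts. Of the neighbours with enough reads, 1 of 55 was called lower and 2 higher in pho1-7tex1-4, 1 and 4 of 55 in pho1-7hpr1-5, and 0 and 2 of 57 in tex1-4, by edgeR's gene test. The neighbour called lower in both double mutants was AT2G11891, 15 bases past AT2G11890 on the same strand, both named after their values were seen. It changed by -1.18 and -1.81 in log2 (adjusted p = 0.00643 and 0.00155, edgeR), from 0.943 CPM in the pot controls. In tex1-4 it changed by -0.50 (adjusted p = 0.312, edgeR). Of the neighbours of the other extensions, 48 of 1099 were called lower and 40 higher in pho1-7tex1-4, 36 and 44 of 1099 in pho1-7hpr1-5, and 33 and 42 of 1080 in tex1-4. For the 74, the median log2 changes of the neighbours were -0.09, -0.08 and -0.05, beside 0.02, -0.0018 and 0.04 for the neighbours of the other extensions. The 5 same-strand neighbours within 1000 bases with the most reads lie downstream of AT1G74060, AT4G16765, AT5G01800, SIR and AT3G17890. CIPK15, a protein kinase gene 84 bases past the RefSeq end of AT5G01800, changed by 0.19, 0.62 and 0.19 in log2 in pho1-7tex1-4, pho1-7hpr1-5 and tex1-4 (adjusted p = 0.117, 0.00122 and 0.0654, edgeR), under 2-fold in each. ACX1, 733 bases past AT4G16765, changed by -0.04, 0.0041 and 0.02 in log2. The neighbour of SIR, AT5G04600, changed by 0.35, 0.10 and 0.21.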

How the data were processed

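Polyadenylated RNA of Arabidopsis roots was sequenced by the authors from strand-specific libraries and aligned with HISAT2 to the TAIR10 genome. Extensions of at least 200 nucleotides had been assembled by the authors out of intergenic bins of 10 nucleotides with normalized read counts. The deposited values are raw counts of reads per gene and per extension, made by the authors with HTSeq without normalization. The strand setting of the counting and the extension coordinates are not given in the sources used here. In each library 17.1% to 19.6% of the counted reads were assigned to no gene and were left out.

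The extension ratio was tested with edgeR 4.0.16 (R 4.3.3) by the quasi-likelihood F test on extension and gene counts together, with 1 term per sample and 1 extension term per genotype. An extension needed 10 reads over the fitted samples. Gene counts were tested by the same method after filterByExpr and TMM scaling. This test gives no standard error, so those printed were worked back as the log2 change divided by the square root of F. The 8 pot and the 6 plate samples were fitted separately, p-values were adjusted by Benjamini-Hochberg over all extensions or genes, and a call needed an adjusted p under 0.1 and a change over 2-fold. Fits were tested on simulated data. CPM values use the TMM library sizes. The series calls its replicates biological, and with 2 or 3 per group p-values measure the spread between these samples. Limits for a count of 0 take 3 counts and cover counting error only.

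Replicate numbers come from the labels and no source says that they pair samples, so no block was used. The alternatives were DESeq2 1.42.0, other scalings, read minimums, selection limits and controls, a replicate block and omission of each library in turn.

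The members, the gene lists and the tests were chosen with earlier results of these data known. The genes named are the 10 members with the most extension reads, the 8 with the lowest ratios, up to 5 called in each test, the 3 nearest to the limit on either side, and 5 with a highly read gene downstream, plus those said to be named after their values were seen. Annotation and sequences came from RefSeq on TAIR10.1, whose symbols or locus tags matched all 74 genes, and were read with Python 3.11.15. The deposited files hold TAIR10 gene models.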

Additional observations from a re-analysis of the deposited data

Results flagged for a closer look

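The direct comparison of the double mutants singled out 7 values among the 74 genes by a test of the difference between pho1-7hpr1-5 and pho1-7tex1-4. In the extension ratio these were the log2 differences of APX1 at AT1G07890 (-1.03), AT1G65510 (-1.08), AT2G33730 (-1.88) and AT3G60770 (-1.81), all lower in pho1-7hpr1-5. In gene counts they were ARR7 at AT1G19050 (1.11), AT1G26800 (1.495) and AT3G18773 (3.05), all higher in pho1-7hpr1-5. The gene count of AT3G18773 was the only one of these 3 with a difference over 4-fold. Over all features, 3.57% of 1458 extensions were called lower and 2.82% of 21972 genes were called higher. DESeq2 with the same ratio model called none of the ratios, and none was called without replicate 1 of either double mutant. Nothing about the 74 as a set is read from these calls. No group of this series has more than 3 libraries, so the values of these genes were not tested for an outlying library.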

How the results depend on the processing

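The 74 members became 21 when the ratio had to be at most 0.5 in all 3 mutants, and between 64 and 82 when each library was left out in turn. All other selection limits gave 68 to 101 members. For pho1-7 against Col-0 in the extension ratio, the 8 called became 2 to 9 with a library left out and 6 with DESeq2. For pho1-7hpr1-5 against pho1-7tex1-4 in the ratio, the 4 called became 0 with DESeq2 in the same model and 2 with DESeq2 on extension counts, and 1 to 6 with a library left out, where 1 and 2 of the calls were higher in place of lower. In gene counts the 2 calls of pho1-7 against Col-0 became 1 to 2 and the 3 calls of the double mutants became 2 to 3 with a library left out. The cause was not tested. The libraries were not paired by number, since the correlation of same-numbered deviations lay between -0.191 and 0.112. With the replicate block the calls were 7 and 4 in the ratios and 2 and 3 in the gene counts, and with crossed numbers, chosen after seeing the data, 5 in the double mutant ratio and 2 in the pho1-7 gene count. Over single genes, 127 of 166 alternatives kept the call, 39 lost it and 0 turned its direction. With 16 to 68.5 reads in the median extension of a library, many single ratios have wide errors.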
